A study of Mus musculus with 16 samples.

Results

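Apolipoproteins are the protein components of lipoproteins, the particles that carry triglyceride and cholesterol in plasma, and the liver makes most of them. The 10 genes described here are Apoa1, Apoa2, Apoa4, Apoa5, Apob, Apoc1, Apoc2, Apoc3, Apoe and Apoh. They were taken from the deposited table of 57010 genes by their symbols, each of which occurs once, and all 10 passed the filter of a mean level of 1 TPM or more, as did 11766 genes in all. TPM is a transcript level divided by length and scaled to the same total in every library. The mice were male wild-type C57BL/6J animals given as 8 to 12 weeks old. A figure legend of the paper gives 8 weeks as the age at which the diet of 3 months began. The age of the mice when livers were taken was not stated as such in the sources used here. There were 4 mice and 4 libraries per group and 16 libraries in all. Control mice received neither agent. Cd mice were injected intraperitoneally with CdCl2 at 1.25 mg/kg daily for 7 days. Se mice ate a diet with selenomethionine (SeMet) at 2 ppm for 3 months, and Cd+Se mice ate that diet and received the Cd injections in its last days. Whether the control and Se mice were injected with vehicle, and the time of day at which livers were taken, were not given in the sources used here.

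Apolipoprotein B is the large structural protein around which very low density lipoproteins (VLDL) are built in hepatocytes. Apolipoproteins A-I and A-II are the main proteins of high density lipoproteins (HDL). The small, exchangeable apolipoproteins set how fast triglyceride is removed from the particles: apolipoprotein C-II activates lipoprotein lipase, apolipoprotein C-III slows lipolysis and clearance, apolipoprotein A-V promotes them, and apolipoprotein E is a ligand for hepatic receptors. Several of the genes sit in clusters. Apoa1, Apoc3, Apoa4 and Apoa5 are neighbours on chromosome 9, with Apoc3 on the opposite strand to the other 3, and Apoe, Apoc1 and Apoc2 lie together on chromosome 7. Apoa2 is on chromosome 1, Apoh on chromosome 11 and Apob on chromosome 12.

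In Cd against control 4 of the 10 genes were called at an adjusted p under 0.05, beside 30.8% of all genes tested, with 3 higher and 1 lower. Apoa5 mRNA was 622 ± 135 TPM (SD, n = 4) in Cd mice against 1345 ± 142 TPM in controls, and the mRNAs of Apoa2, Apoc1 and Apoc3, which have the shortest transcripts of the 10, were 1.35 to 1.48 times the control level by the fitted log2 fold changes. In the livers of Cd+Se mice all 10 mRNAs were at levels that overlapped the controls, where 8.86% of all genes tested did not overlap.

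Sequences are shown for the 4 genes called in Cd against control and for Apob, which was called in Cd+Se against Cd alone. The windows for Apoa5, Apob and Apoa2 are the 250 bases before the RefSeq transcription start (GRCm38.p6, plus strand), and capitals mark the letters TATAA. In Apoa5 the TATAA begins 31 bases before the start, in Apob 60 bases and in Apoa2 212 bases, and 22.8% of 32851 RefSeq windows of this length hold TATAA on either strand. Where RefSeq lists more than 1 start, the window its table lists first is shown. The second Apoa5 start, 25 bases downstream and equal to the GENCODE start, puts the same TATAA at position -56, and the window of the second Apoa2 start holds none. The windows of Apoa1, Apoa4, Apoc2 and Apoh, which are not shown, hold no TATAA, and Apoe has windows with and without it. A match of letters is a description and says nothing of use by a factor.
Apoa5, chr9:46268358-46268607: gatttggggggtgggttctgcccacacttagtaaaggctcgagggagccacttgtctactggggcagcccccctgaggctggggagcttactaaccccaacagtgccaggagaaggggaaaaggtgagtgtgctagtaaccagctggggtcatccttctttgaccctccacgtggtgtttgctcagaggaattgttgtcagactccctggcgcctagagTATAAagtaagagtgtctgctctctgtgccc
Apob, chr12:7977427-7977676: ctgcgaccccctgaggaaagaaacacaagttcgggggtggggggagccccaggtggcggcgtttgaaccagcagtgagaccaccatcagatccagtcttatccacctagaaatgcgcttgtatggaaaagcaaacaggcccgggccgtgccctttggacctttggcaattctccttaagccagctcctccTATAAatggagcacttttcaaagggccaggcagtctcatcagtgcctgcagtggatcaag
Apoa2, chr1:171224804-171225053: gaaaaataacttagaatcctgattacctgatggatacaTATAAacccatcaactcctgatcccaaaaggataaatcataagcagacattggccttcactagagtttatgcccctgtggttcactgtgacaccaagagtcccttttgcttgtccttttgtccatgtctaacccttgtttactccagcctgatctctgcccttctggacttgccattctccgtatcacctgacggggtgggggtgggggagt

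For Apoc1 and Apoc3 the coding sequence of the principal GENCODE M21 transcript is given. It is 267 bases long in Apoc1 and 300 bases in Apoc3, which is shorter than in the other 8 genes except Apoc2, and it shows how small these transcripts are beside the 13934 bases of Apob.
Apoc1-201: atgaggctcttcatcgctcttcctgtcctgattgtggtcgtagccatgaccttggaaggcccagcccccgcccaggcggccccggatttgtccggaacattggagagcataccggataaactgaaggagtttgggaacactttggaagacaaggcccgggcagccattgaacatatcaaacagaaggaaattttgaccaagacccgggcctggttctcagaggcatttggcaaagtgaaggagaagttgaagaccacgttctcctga
Apoc3-201: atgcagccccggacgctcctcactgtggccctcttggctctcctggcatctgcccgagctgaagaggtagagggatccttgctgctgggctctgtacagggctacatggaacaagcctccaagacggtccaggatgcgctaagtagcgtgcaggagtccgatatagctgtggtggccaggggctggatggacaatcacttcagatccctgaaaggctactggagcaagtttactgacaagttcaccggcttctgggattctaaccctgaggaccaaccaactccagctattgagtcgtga

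The labels were checked with the metallothionein genes, whose products bind Cd: Mt1 was 50.9 to 431 TPM in the mice without Cd and 3178 to 6070 TPM in those with Cd. TPM keep no sequencing depth, so depth is unknown and precision rests on the 4 mice per group, which were separate animals. The library of Cd mouse 5 stood apart, with 22.2% of its TPM from mitochondrially encoded genes against 12.8% to 18% in the other 15 libraries and a median log2(TPM + 1) of 2.68 against 2.90 to 3.36. Groups were compared as log2(TPM + 1) with limma, whose standard errors (SE) and adjusted p are given throughout, in 1 model of the 16 libraries and with p-values adjusted over the 11766 genes. The median log2 fold change of all genes tested was -0.17 in Cd against control and 0.17 in Cd+Se against Cd, and for the genes called, log2 fold changes relative to these medians are given beside those on the TPM scale.

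Apolipoprotein mRNAs were among the most abundant in every liver. By mean TPM over the 16 libraries, a scale per transcript length, Apoe was the highest at 22057 TPM and ranked 5 of all 57010 genes, followed by Apoa2 at 14289 TPM (rank 11), Apoc1 at 12177 TPM (rank 14) and Apoa1 at 7522 TPM (rank 22). Apoc3 at 3321 TPM, Apoh at 1917 TPM, Apob at 1176 TPM and Apoa5 at 1125 TPM came next. Apoc2 at 408 TPM and Apoa4 at 231 TPM were the lowest of the 10, and Apoa4 is made mainly by the intestine.

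The order held in most mice. Apoe exceeded Apoa2 in 15 of 16 mice, the exception being Cd mouse 5, and Apoa2 exceeded Apoc1 in all 16. The groups of values of Apoa2 and Apoc1 overlapped in Cd, Cd+Se and Se mice. Apob and Apoa5 did not hold a fixed order: Apob was the higher of the pair in 1 of 4 control mice, 2 of 4 Cd+Se mice, 2 of 4 Se mice and all 4 Cd mice.

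Together the 10 genes made up 6.11% ± 0.189 (SD, n = 4) of the TPM of a control liver, 7.18% ± 0.808 of a Cd liver, 6.39% ± 0.231 of a Cd+Se liver and 6.02% ± 0.506 of a Se liver. The lowest Cd mouse, at 6.43%, was above the highest control, at 6.24%, and the Cd range of 6.43% to 8% overlapped those of the Cd+Se and Se mice. Without the mitochondrially encoded genes in the total, the shares were 7.36%, 8.58%, 7.59% and 7.12% in the same order. Apoe, Apoa2, Apoc1 and Apoa1 made up most of the sum.

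**Figure D1:**
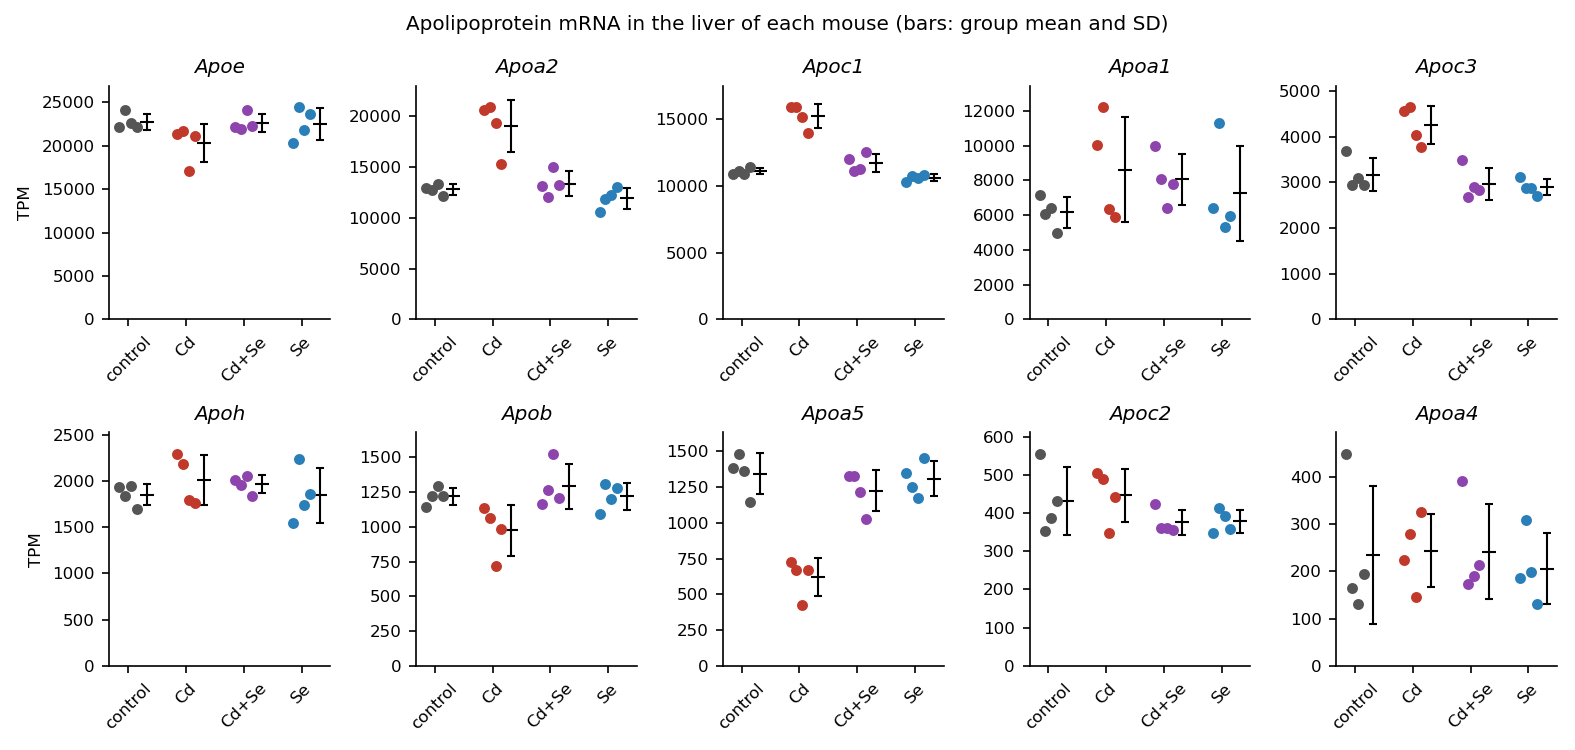
TPM of the 10 apolipoprotein genes in the liver of each mouse (vertical axis from 0; each point is 1 mouse; bars are the group mean and SD, n = 4), ordered by mean level. The Cd points of Apoa5, 423 to 725 TPM, lie under all other groups, and those of Apoa2, Apoc1 and Apoc3 lie above them.

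The first question was how Cd alone altered the apolipoprotein mRNAs. With an adjusted p under 0.05, 4 of the 10 genes were called in Cd against control, beside 30.8% of all genes tested. By direction, 3 of 10 rose where 5.82% of all genes did, and 1 of 10 fell where 24.9% of all genes did. The groups did not overlap for 6 of 10 genes, beside 34.2% of all genes tested. The median log2 fold change of the 10 genes was 0.14. The counts by direction depend on the processing. After a correction for transcript length and GC content, described below, 1 of the 10 rose and 1 fell. In that fit 3519 of 11561 genes were called, 1531 of them higher. Since whole liver was sequenced, fewer cells of a type and less RNA per cell cannot be told apart for any of these values.

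Among the genes that act on triglyceride removal, Apoa5 fell. Its level was 1386, 1484, 1361 and 1147 TPM in control mice 27 to 30, and 725, 667, 423 and 671 TPM in Cd mice 1, 2, 5 and 6. All 4 Cd mice were under all 4 controls, with Cd mouse 5 the lowest. The log2 fold change was -1.14, with SE 0.155 and adjusted p = 0.000232, or -0.96 relative to the median of all genes, and 1.5% of all genes tested had a lower log2 fold change. Without Cd mouse 5 it was -0.96 (adjusted p = 0.000268).

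Apoc3, which encodes the inhibitor of lipolysis, moved the other way. Control mice had 3694, 2939, 3092 and 2936 TPM and Cd mice 4571, 4646, 4038 and 3773 TPM. The lowest Cd mouse was thus only just above the highest control. The log2 fold change was 0.43 (SE 0.116, adjusted p = 0.0118), or 0.60 relative to the median of all genes. Apoc2, the lipase cofactor, was 431 ± 88.7 TPM in controls and 446 ± 70.1 TPM in Cd mice, and its log2 fold change of 0.06 had a 95% interval of -0.25 to 0.36. Reads of Apoc2 could be shared with Apoc2l, a gene on the same strand that overlaps it and was listed at 17.9 to 39.1 TPM.

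Apoc1 encodes a small apolipoprotein that inhibits receptor uptake of remnants. Its TPM were 10934, 11164, 10905 and 11421 in control mice and 15912, 15905, 15177 and 13985 in Cd mice. Both groups were tight and far apart, with a log2 fold change of 0.46 (SE 0.0915, adjusted p = 0.00215) or 0.63 relative to the median. Its neighbour Apoe, whose product clears remnant particles, was 22140, 24146, 22589 and 22140 TPM in controls and 21365, 21661, 17069 and 21106 TPM in Cd mice. All 4 Cd mice were under the controls, but only by a small margin outside mouse 5. The log2 fold change of Apoe was -0.17 (95% interval -0.40 to 0.06, adjusted p = 0.247), which equals the median of all genes, and it was -0.09 without Cd mouse 5. Macrophages also make apolipoprotein E, and the 10 Kupffer cell markers summed to 183 to 220 TPM in control mice and 76.9 to 112 TPM in Cd mice. The part of that difference in the Apoe level was not tested.

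Of the HDL genes, Apoa2 rose and Apoa1 varied widely. Apoa2 was 12981, 12767, 13345 and 12119 TPM in controls and 20615, 20891, 19323 and 15347 TPM in Cd mice, without overlap and with Cd mouse 6 the lowest of its group. The log2 fold change was 0.56 (SE 0.120, adjusted p = 0.00307), or 0.73 relative to the median of all genes. Apoa1 was 7138, 6059, 6437 and 4974 TPM in controls and 10033, 12210, 6342 and 5897 TPM in Cd mice. Cd mice 1 and 2 were above every control while mice 5 and 6 were among them, and the log2 fold change of 0.43 had a 95% interval of -0.10 to 0.97 (adjusted p = 0.206). Cd mice 1 and 2 also had the lowest mitochondrial shares of the group, 13% and 12.8%.

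Apob was 1142, 1225, 1291 and 1220 TPM in control mice and 1137, 1063, 714 and 982 TPM in Cd mice. The groups did not overlap, but Cd mouse 1 lay just under the lowest control. The log2 fold change was -0.34 (SE 0.136, adjusted p = 0.0645), or -0.17 relative to the median. Apoh, which encodes the phospholipid-binding plasma protein beta-2-glycoprotein I, was 1853 ± 116 TPM in controls and 2009 ± 270 TPM in Cd mice, with a log2 fold change of 0.11 (95% interval -0.15 to 0.37). Apoa4 ranged from 131 to 448 TPM in controls alone, and its log2 fold change of 0.16 had the widest interval of the 10, -0.62 to 0.94.

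**Figure D2:**
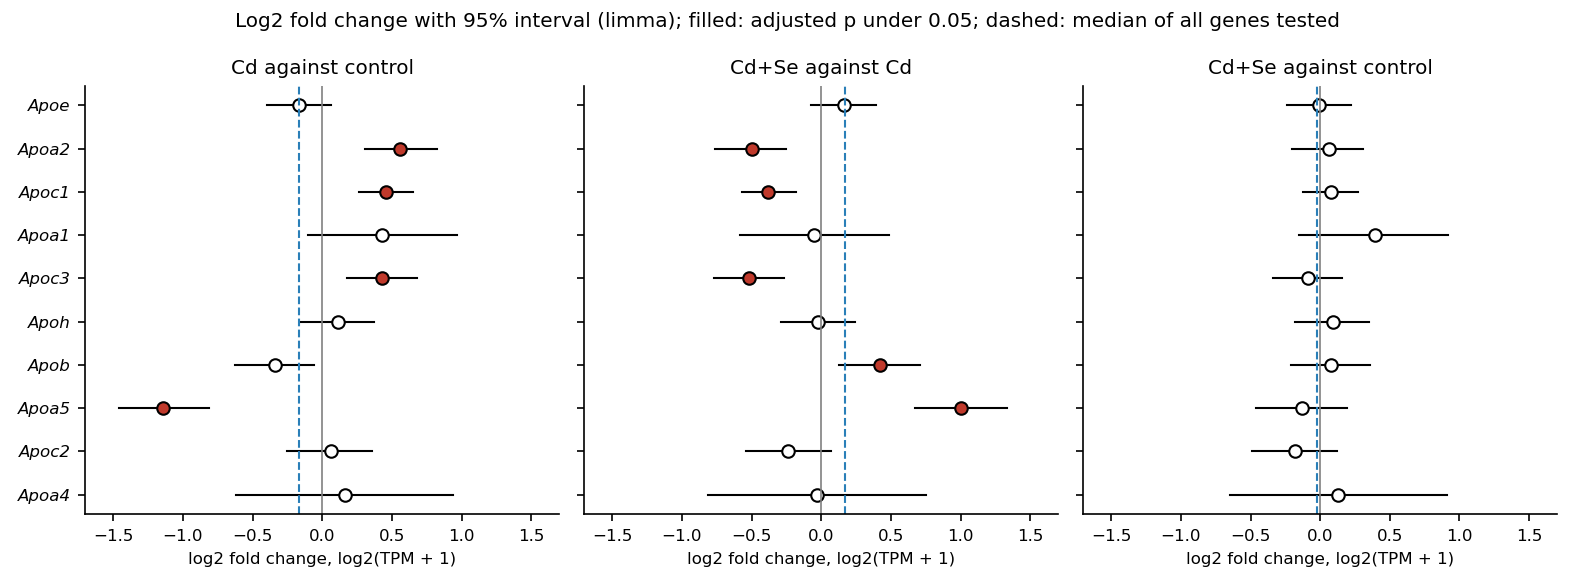
Log2 fold change of each gene (circle) with its 95% interval (line) on the log2(TPM + 1) scale in 3 comparisons; filled circles passed an adjusted p under 0.05 in limma and the dashed line is the median of all genes tested. Apoa5 is at -1.14 in Cd against control and 1.0 in Cd+Se against Cd, while Apoa2, Apoc1 and Apoc3 have the opposite signs, and no circle is filled in Cd+Se against control.

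The next comparison asked how the livers of Cd mice fed SeMet differed from those of Cd mice on the plain diet. It shares the Cd mice with the comparison above, so that a chance deviation of these 4 livers enters both with opposite signs. With an adjusted p under 0.05, 5 of 10 genes were called, beside 15.9% of all genes tested. Of these, 2 were higher (13.6% of all genes) and 3 lower (2.35% of all genes), and the groups did not overlap for 6 of 10, beside 19.2% of all genes. The median log2 fold change of the 10 genes was -0.04. After the correction for length and GC content, 1 of the 10 was higher and 2 were lower. In that fit 1563 of 11561 genes were called, 819 of them higher.

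Apoa5 was 1330, 1328, 1217 and 1029 TPM in Cd+Se mice 13 to 16. Each of them was above the highest Cd mouse, at 725 TPM. The log2 fold change of Apoa5 in Cd+Se against Cd was 1.0 (SE 0.155, adjusted p = 0.00317), or 0.83 relative to the median of all genes and 0.83 on the TPM scale without Cd mouse 5 (adjusted p = 0.00533). Apob, at 1164, 1267, 1525 and 1209 TPM, also lay above all Cd mice, with a log2 fold change of 0.42 (SE 0.136, adjusted p = 0.0462), or 0.25 relative to the median. That call depended on single mice: leaving out each of the 16 in turn, Apob was called in 5 cases, and without Cd mouse 5 its log2 fold change was 0.28 (adjusted p = 0.127).

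The genes that were high in Cd livers were lower in Cd+Se livers. Apoc3 was 3482, 2683, 2897 and 2824 TPM, all under the lowest Cd mouse at 3773 TPM, and its log2 fold change was -0.52 (SE 0.116, adjusted p = 0.0128), or -0.69 relative to the median. Apoa2 was 13168, 12047, 15037 and 13217 TPM, with Cd+Se mouse 15 just under the lowest Cd mouse at 15347 TPM and a log2 fold change of -0.50 (SE 0.120, adjusted p = 0.0150), or -0.67 relative to the median. Apoc1 was 11992, 11126, 11244 and 12542 TPM against 13985 TPM in the lowest Cd mouse, with a log2 fold change of -0.38 (SE 0.0915, adjusted p = 0.0155), or -0.55 relative to the median. Leaving out Cd+Se mouse 14 left Apoa2 and Apoc1 above the threshold, at adjusted p = 0.0519 and 0.0540.

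The other 5 genes did not pass the test in Cd+Se against Cd. Apoe was 22199, 21900, 24165 and 22274 TPM, above all Cd mice, with a log2 fold change of 0.16 (95% interval -0.07 to 0.39). Apoc2 was 375 ± 32.0 TPM against 446 ± 70.1 TPM, a log2 fold change of -0.24 (95% interval -0.54 to 0.07). For Apoa1, at 9999, 8057, 6434 and 7801 TPM, Apoh and Apoa4 the log2 fold changes were -0.05, -0.02 and -0.03. Apoa1 thus stayed in the range of the Cd mice, with the means of both groups above the controls.

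Against the controls, none of the 10 genes was called in Cd+Se livers with an adjusted p under 0.05 in limma, beside 0.484% of all genes tested, and none had an unadjusted p under 0.05, beside 1286 of 11766 genes. The values of each of the 10 genes overlapped those of the controls, and 8.86% of all genes tested did not overlap. Log2 fold changes were -0.13 for Apoa5 (95% interval -0.46 to 0.19), 0.06 for Apoa2 (-0.20 to 0.31), 0.08 for Apoc1 (-0.12 to 0.27) and -0.09 for Apoc3 (-0.34 to 0.16). These intervals leave out changes as large as those in Cd mice for Apoa5, Apoa2, Apoc1 and Apoc3, whose Cd estimates of -1.14, 0.56, 0.46 and 0.43 fall outside them. The interval of Apoa1, -0.15 to 0.92 around 0.39, does not leave out its Cd estimate of 0.43.

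Within SeMet-fed mice, Cd+Se against Se called none of the 10 genes (0.714% of all genes tested), and none had an unadjusted limma p under 0.05. Log2 fold changes ran from -0.10 for Apoa5 to 0.22 for Apoa4. The groups did not overlap for Apoc1 alone, at 11126 to 12542 TPM in Cd+Se mice and 10308 to 10851 TPM in Se mice, beside 5.64% of all genes. SeMet alone called none either (0% of all genes tested), with 454 genes and none of the 10 at an unadjusted limma p under 0.05. Its log2 fold changes were between -0.17 for Apoc2 and 0.18 for Apoa1, where Se mouse 40 reached 11322 TPM and the other 3 Se mice 5297 to 6425 TPM. Apoc1 was again the only gene whose groups did not overlap, with the lowest control at 10905 TPM and the highest Se mouse at 10851 TPM, beside 3.09% of all genes.

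Whether the effect of Cd differed between diets was tested by the interaction of Cd and Se, which called 1 of the 10 genes, beside 1.04% of all genes tested. The gene was Apoa5: the log2 fold change by Cd was 1.04 higher on the SeMet diet than on the plain diet (SE 0.220, adjusted p = 0.0411). It was called in 6 of the 16 fits that left out 1 mouse, with adjusted p between 0.0279 and 0.0960 and estimates between 0.86 and 1.12. For Apoa2, Apoc1, Apoc3 and Apob the interaction was -0.40, -0.32, -0.39 and 0.42, each with an unadjusted p under 0.05 and with adjusted p of 0.193, 0.182, 0.189 and 0.218. Over the alternative settings that kept all mice, the interaction of Apoc1 ran from -0.50 to 0.05, turning in sign after quantile normalization, and that of Apob fell to 0.08 after the length and GC correction. For these 4 genes a difference between diets in the effect of Cd was not shown.

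Ratios between genes in 1 library do not depend on the scaling of that library, but a trend with transcript length does not cancel in them. Principal transcripts are 2312 bases in Apoa5, 1035 bases in Apoa1, 526 bases in Apoc3, 432 bases in Apoc1 and 1128 bases in Apoe. The ratios were not corrected for length. On chromosome 9, the ratio of Apoa5 to Apoa1 was 0.194, 0.245, 0.211 and 0.231 in control mice and 0.0723, 0.0547, 0.0667 and 0.114 in Cd mice. In Cd+Se mice it was 0.133, 0.165, 0.189 and 0.132, above every Cd mouse and under every control. The means were 0.220, 0.0769 and 0.155, and each of these 3 comparisons had an exact permutation p of 0.0286 (two-sided), the smallest that 4 against 4 mice allow. The intermediate ratio in Cd+Se mice goes with Apoa1, which was above the highest control in 3 of 4 of them, whereas Apoa5 overlapped the controls.

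The ratio of Apoa5 to Apoc3, added after the values were seen, was 0.428 ± 0.0584 in the controls. Cd livers had 0.146 ± 0.0310, Cd+Se livers 0.415 ± 0.0580 and Se livers 0.455 ± 0.0590. Its highest value in Cd mice, 0.178, was far under its lowest value elsewhere, 0.364. Its mean in Cd livers was 0.342 times that of the controls, and in Cd+Se livers 0.971 times. On chromosome 7, Apoc1 over Apoe was 0.489 ± 0.0223 in controls, 0.758 ± 0.0950 with Cd and 0.519 ± 0.0424 with Cd and SeMet, with Cd mice at 0.663 to 0.889 and all other mice at 0.441 to 0.563.

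In all, 45 comparisons of 9 ratios were made, 5 of them of the added ratio, and 9 reached the exact permutation p of 0.0286, which became 0.143 after Benjamini-Hochberg adjustment over the 45. None passed 0.05 after adjustment. With 0.0286 the smallest p possible, a ratio could pass only if most of the 45 had reached it, so the adjusted result decides little. Among the 9 was Apoc3 over Apoa1, at 0.333 to 0.45 in Cd+Se mice and 0.48 to 0.59 in controls. Another was Apoc2 over Apoe, at 0.0149 to 0.0191 in Cd+Se mice and 0.0204 to 0.0236 in Cd mice. Apoa4 over Apoa1, Apoa2 over Apoa1, Apob over Apoa1 and Apoh over Apoa1 overlapped between groups in all 5 comparisons.

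**Figure D3:**
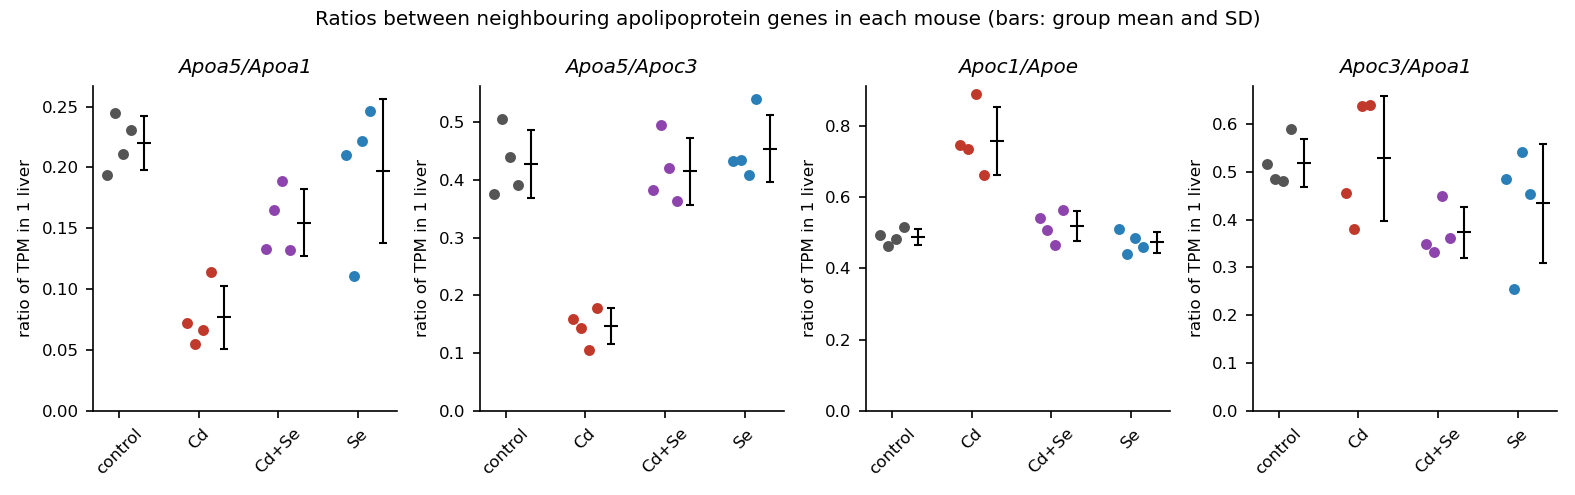
Ratio of the TPM of gene pairs in the liver of each mouse (vertical axes from 0; points are mice; bars are the group mean and SD, n = 4). Apoa5/Apoc3 is 0.105 to 0.178 in Cd mice and at least 0.364 in all others, and Apoc1/Apoe is 0.663 to 0.889 in Cd mice and at most 0.563 in all others.

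The direction of change went with transcript length for the shortest and longest of the 10, while the genes between showed no such order. The 3 genes called higher in Cd livers have principal transcripts of 432 bases (Apoc1), 492 bases (Apoa2) and 526 bases (Apoc3). Apoa5 and Apob, whose log2 fold changes were the lowest, have transcripts of 2312 and 13934 bases. Between these lengths, Apoc2 (631 bases) was at 0.06, Apoa1 (1035 bases) at 0.43, Apoe (1128 bases) at -0.17, Apoh (1190 bases) at 0.11 and Apoa4 (1815 bases) at 0.16. Across 11561 genes with a GENCODE length, which are not independent replicates, Spearman's rho of the log2 fold change with transcript length was -0.31 in Cd against control, 0.34 in Cd+Se against Cd and -0.06 in Cd+Se against control. The shortest 10% of genes had a median log2 fold change of 0.17 in Cd against control and the longest 10% one of -0.32. Lengths over all genes are of the longest protein-coding transcript, which can differ from the principal transcript listed for the 10. The lengths of RNA fragments and the integrity of the RNA were not given in the sources used here, and their part in these values was not tested.

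When each library was corrected for transcript length and GC content by a loess curve, a step chosen after seeing the data, Apoa5 was still called: its log2 fold change was -0.98 in Cd against control (adjusted p = 0.00015) and 0.86 in Cd+Se against Cd (adjusted p = 0.00156). Apoa2 was still called, at 0.36 and -0.40 (adjusted p = 0.0355 and 0.0409). In Cd against control, Apoc3 at 0.26 (adjusted p = 0.0595) and Apoc1 at 0.24 (adjusted p = 0.0649) no longer passed it. For the Cd+Se and Cd mice, Apoc3 was called at -0.42 (adjusted p = 0.0148) and Apoc1 was not, at -0.26 (adjusted p = 0.0803). For Apob the correction left log2 fold changes of -0.04 and 0.11.

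**Figure D4:**
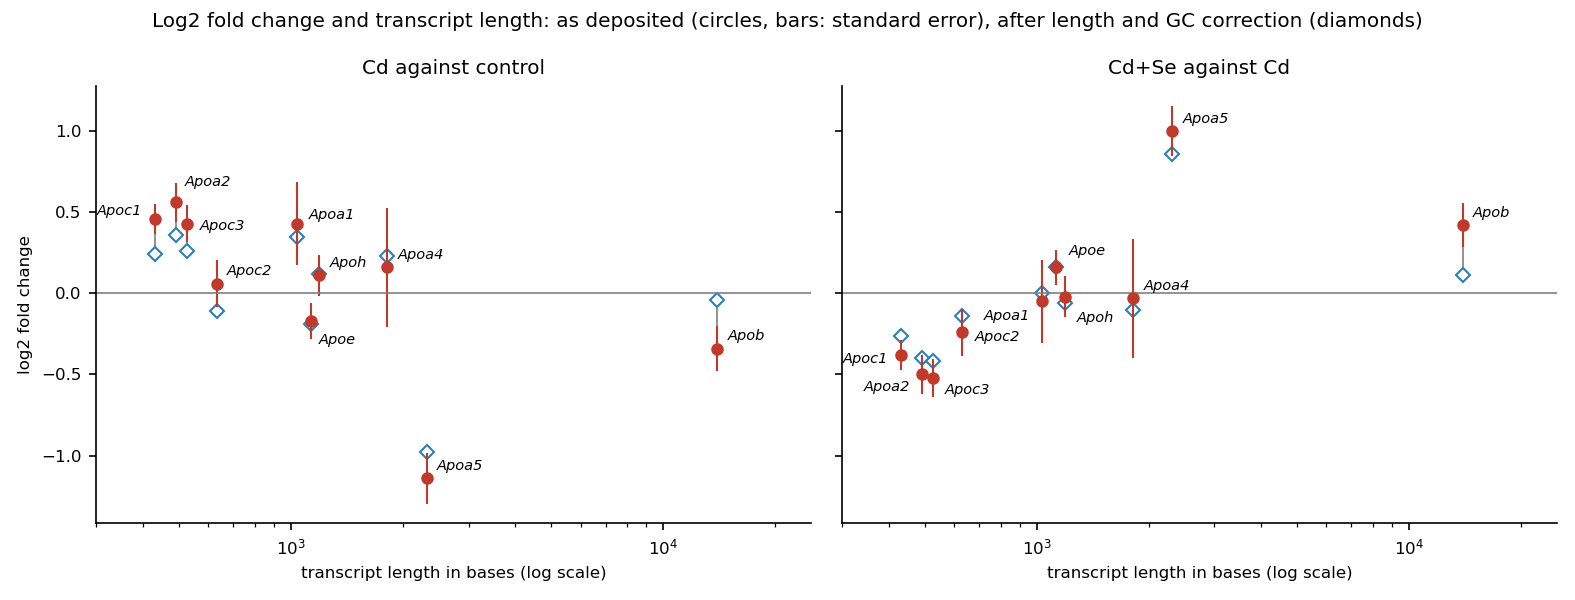
Log2 fold change (vertical) against the length of the principal transcript in bases (horizontal, log scale) for the 10 genes in 2 comparisons; circles with standard errors are from the deposited TPM and diamonds follow the length and GC correction. Apoc1, Apoa2 and Apoc3, of 432 to 526 bases, move towards 0 with the correction, Apob moves to -0.04 and 0.11, and Apoa5 stays at -0.98 and 0.86.

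Other scalings also moved the small changes. With each library centred on its median, the log2 fold changes in Cd against control were 0.78 for Apoa2, 0.68 for Apoc1, 0.65 for Apoc3 and -0.92 for Apoa5, that of Apoe turned to 0.05, and Apoa1 at 0.65 and Apoh at 0.33 passed the threshold (adjusted p = 0.0256 and 0.00771). Quantile normalization left Apoc1 at 0.12 (adjusted p = 0.484) and Apoa2 at 0.32 (adjusted p = 0.0938), and Apob at -0.47 passed the threshold (adjusted p = 0.00145). Over all genes, 18.9% of the calls in Cd against control were higher as deposited, against 55.6% after median centring, 42.9% after quantile normalization and 43.5% after the length and GC correction. The shares in Cd+Se against Cd were 85.3%, 42.4%, 56.3% and 52.4%.

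Mice of a group also differed among themselves. With the group means removed, log2 values of Apoe and Apob had r = 0.88 over the 16 libraries, Apoc2 and Apoa4 0.82, and Apoh and Apoa1 0.78, as descriptions of libraries that share their scaling. Control mouse 27 had the highest Apoc2, 555 TPM, and the highest Apoa4, 448 TPM, of all 16 livers, and Cd+Se mouse 13 was the highest of its group in both. For neighbours on chromosome 9, r was 0.36 for Apoa5 with Apoa1 and 0.59 for Apoc3 with Apoa1.

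Over all 16 libraries, the genes outside the 10 whose log2 levels were most like those of Apoa5 were Zfyve9, Slc35e1 and Zdhhc5, each with Pearson r = 0.97. For Apob they were Lamp2 (r = 0.97), Hipk3 and Pafah1b1 (both 0.96), and for Apoe Vps54, Fbxo9 (both 0.94) and Rnf14 (0.93). Apoc1 and Apoa2 shared Acrbp (r = 0.94 and 0.92), and Apoc1 and Apoc3 shared Atp5e (0.92 and 0.93), which encodes a very small subunit of the mitochondrial ATP synthase. For Apoa1 the first were Cyp51 (r = 0.91), an enzyme of cholesterol synthesis, Gm10275 and Rdh11. For Apoc2 they were Gatb, Sdhb and Spice1 (r = 0.89, 0.87 and 0.85), for Apoa4 Myl9, Nbdy and Slc23a1 (0.83, 0.80 and 0.76), and for Apoh Mfsd14a, Hook2 and Ccni (0.95, 0.92 and 0.92). The remaining neighbours in likeness were Gm3219 and Pdgfrl for Apoa2 (both 0.93), Ccnl2 for Apoc1 (0.92), and Ndufv3 and Pfdn1 for Apoc3 (both 0.93). These correlations hold the group differences and the scaling as well as any other source, and no test was made.

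Other apolipoprotein genes were measured beside the 10. Of 15 on the list, 11 passed the filter, and in Cd against control 2 rose and 2 fell, where 5.82% of all genes rose and 24.9% fell. Apoc4, the fourth gene of the cluster on chromosome 7, was 1501 ± 110 TPM in controls, 2146 ± 241 TPM with Cd and 1616 ± 87.2 TPM with Cd and SeMet (log2 fold changes 0.51 and -0.40, adjusted p = 0.00302 and 0.0231). Apom, which encodes the HDL carrier of sphingosine-1-phosphate, was 234 ± 9.29, 137 ± 65.8 and 258 ± 30 TPM (log2 fold changes -0.92 and 1.06, adjusted p = 0.0222 and 0.0225). Apol7a fell from 57.3 to 31.8 TPM (log2 fold change -0.84, adjusted p = 0.000573) and at 36.3 TPM was also lower in Cd+Se mice than in controls (-0.65, adjusted p = 0.0380). The acute phase gene Saa2 was at 967 ± 1567 TPM in controls and 3679 ± 2342 TPM in Cd mice (adjusted p = 0.0496), and mice of either group differed widely. In Cd+Se against Cd, 2 rose (Apom and Clu, which encodes clusterin, at a log2 fold change of 0.37) and Apoc4 fell, beside 13.6% and 2.35% of all genes. Without Cd mouse 5 the counts were 1 higher and 2 lower in Cd against control and 1 and 1 in Cd+Se against Cd. For this list and those below, the fit without Cd mouse 5 called 2678 and 767 of 11766 genes in these comparisons, 682 and 591 of them higher. The fit with the length and GC correction called 3519 and 1563 of 11561 genes, 1531 and 819 of them higher.

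Of 15 genes for assembly and secretion of VLDL, all of which passed the filter, 6 fell and 0 rose in Cd against control, where 24.9% of all genes fell, with a median log2 fold change of -0.31 against -0.17 over all genes. Without Cd mouse 5, 6 fell as well. A1cf, the RNA-binding cofactor of the enzyme that edits Apob mRNA, was 51.0 ± 9.25 TPM in controls, 13.4 ± 4.01 TPM with Cd and 38.1 ± 4.70 TPM with Cd and SeMet (log2 fold changes -1.89 and 1.48, adjusted p = 2.02e-05 and 0.000813). The editing enzyme gene Apobec1 did not pass, at 7.98 and 13.1 TPM (log2 fold change 0.59, adjusted p = 0.0817). Dgat2, for the last step of triglyceride synthesis, and Mia3 and Mia2, for export of large cargo from the endoplasmic reticulum, had log2 fold changes of -0.83, -0.83 and -0.71 (adjusted p = 0.000405, 0.00089 and 0.00116). Mttp, whose product transfers lipid onto apolipoprotein B, was 104 ± 15 TPM in controls and 65.3 ± 11.7 TPM in Cd mice (-0.66, adjusted p = 0.0103), and Sar1a was at -0.50.

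In Cd+Se against Cd, 5 of the same 15 genes rose and 0 fell, where 13.6% of all genes rose and 2.35% fell. Those that rose were A1cf, Mia3 (log2 fold change 0.92, adjusted p = 0.00324), Dgat2 (0.57, adjusted p = 0.0118), Mia2 (0.54, adjusted p = 0.0150) and Sar1a (0.43). Mttp did not pass, at 87.6 ± 15 TPM in Cd+Se mice (0.42, adjusted p = 0.110). The interaction called A1cf and Mia3, at 1.62 and 0.95 (adjusted p = 0.0176 and 0.0416). After the length and GC correction, 7 genes fell and 1 rose in Cd against control, with a list median of -0.04, and 3 rose in Cd+Se against Cd, with A1cf at -1.65 and 1.26.

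Genes for plasma enzymes and their regulators were called in both directions: of 13, 1 rose and 4 fell in Cd against control, where 5.82% of all genes rose and 24.9% fell. The hepatic lipase gene Lipc fell from 144 ± 21.7 to 89.5 ± 11.3 TPM (log2 fold change -0.68, adjusted p = 0.00141), and Pon3 and Gpld1 fell with it, at -0.69 and -0.62 (adjusted p = 0.00232 and 0.0117). Lpl, for lipoprotein lipase, was low throughout but rose from 4.54 ± 0.559 TPM in controls to 9.81 ± 2.36 TPM in Cd mice (0.95, adjusted p = 0.00154). At 11.1 ± 0.675 TPM in Cd+Se mice it was above controls as well (1.13, adjusted p = 0.00742). Macrophages express Lpl, and 5 of 7 tested markers of recruited myeloid cells rose in Cd against control, beside 5.82% of all genes. The markers on this list summed to 53.9 to 67.4 TPM in controls, 73.0 to 93.8 TPM with Cd and 116 to 192 TPM with Cd and SeMet. Their part in the Lpl level was not tested. In Cd+Se against Cd, 3 of 13 rose (Lipc, Gpld1 and Pon3, at 0.55, 0.64 and 0.44), beside 13.6% of all genes. Without Cd mouse 5, or after the length and GC correction, the count was 1.

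Of 12 receptor and transporter genes that passed the filter, 0 rose and 3 fell in Cd against control, a share near the 24.9% of all genes that fell. Among them were Abca1, the exporter of cholesterol to apolipoprotein A-I (log2 fold change -0.98, adjusted p = 0.000414), and Sdc1, a remnant receptor (-0.56, adjusted p = 0.00351). Of the 12, 3 rose and 0 fell in Cd+Se against Cd, beside 13.6% and 2.35% of all genes. Abca1 was at 0.69 and Sdc1 at 0.42 (adjusted p = 0.0105 and 0.0304). After the length and GC correction 2 rose and 3 fell in Cd against control, and 1 rose and 2 fell in Cd+Se against Cd. Without Cd mouse 5 the second comparison had 2 higher. The receptor gene Lrp1 did not pass in Cd against control, at -0.14.

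Among 19 transcriptional regulators with known roles at apolipoprotein genes or in lipid metabolism, 2 rose and 8 fell in Cd against control, and 6 rose and 2 fell in Cd+Se against Cd. Of all genes tested, 5.82% rose and 24.9% fell in the first comparison and 13.6% and 2.35% in the second. Without Cd mouse 5 the counts were 1 and 6, and 4 and 2. Corrected for length and GC content they were 4 and 6, and 3 and 3. The counts over all genes in these fits, given above with the other apolipoprotein genes, differ from those of the main fit. Rxra, the common partner of nuclear receptors, was 93.4 ± 3.97 TPM in controls, 44.8 ± 6.75 TPM with Cd and 73.9 ± 7.82 TPM with Cd and SeMet (log2 fold changes -1.05 and 0.72, adjusted p = 5.01e-05 and 0.00383). Ppara, whose product is the fatty acid sensor that activates Apoa5, had log2 fold changes of -1.15 and 0.90 (adjusted p = 0.000479 and 0.00787), and Creb3l3, for another activator of lipase cofactor genes, -0.98 and 0.57 (adjusted p = 0.000234 and 0.0149). Nr1h4, for the bile acid receptor, was at -0.86 and 0.63 (adjusted p = 0.000718 and 0.0139). Nr1d1, for the clock repressor REV-ERB alpha, was 11.6 ± 3.80, 38.5 ± 14.4 and 11.6 ± 4.0 TPM (1.63 and -1.63, adjusted p = 0.00145 and 0.00635), and whether time of day differed between groups cannot be told from the labels.

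**Figure D5:**
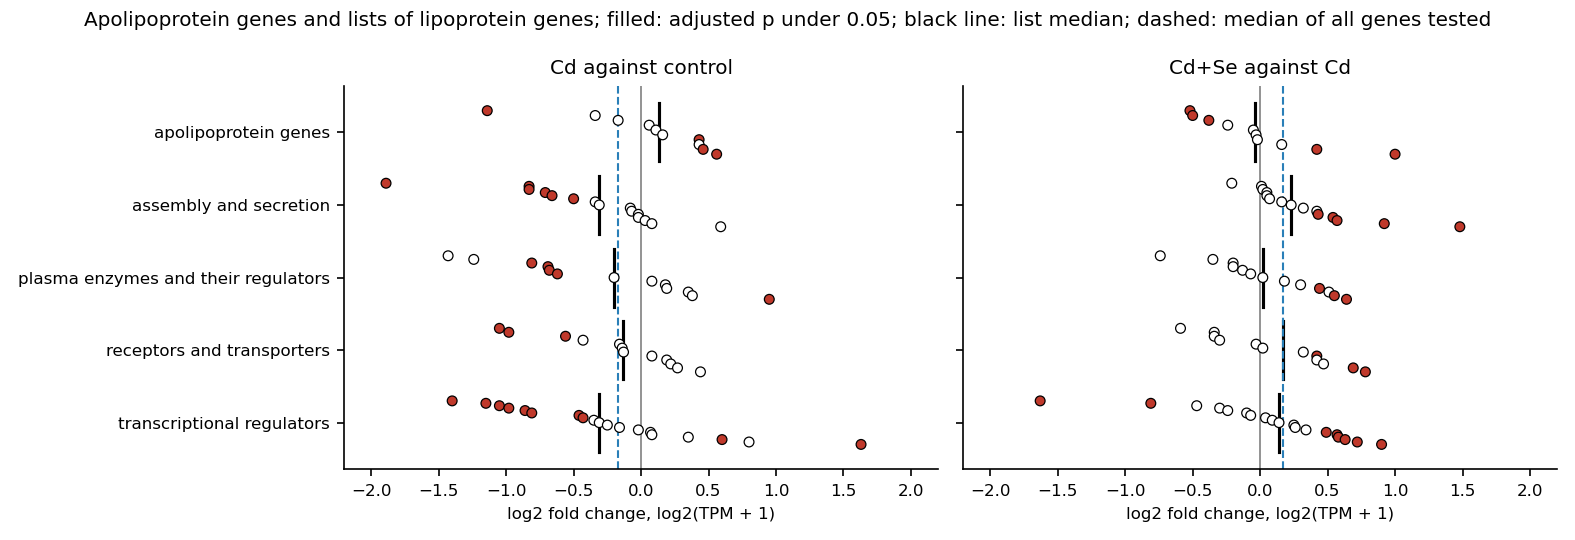
Log2 fold change on the log2(TPM + 1) scale of the 10 apolipoprotein genes and of 4 lists of lipoprotein genes in 2 comparisons; each circle is 1 gene, filled where the adjusted p was under 0.05, black lines are list medians and the dashed line is the median of all genes. In Cd against control the median of the 10 is 0.14, that of assembly and secretion -0.31 and that of transcriptional regulators -0.31.

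Other proteins that hepatocytes secrete gave a reference for the 10. Of 20 such genes, 5 rose and 1 fell in Cd against control and 1 rose in Cd+Se against Cd, with medians of 0.02 and 0.14. Of all genes tested, 5.82% rose and 24.9% fell in Cd against control, and 13.6% rose and 2.35% fell in Cd+Se against Cd. Without Cd mouse 5, 2 rose and 1 fell in Cd against control and 0 were called in Cd+Se against Cd. Trf, for transferrin, rose from 9234 ± 703 to 14828 ± 588 TPM (log2 fold change 0.69, adjusted p = 0.00491) and was 13951 ± 982 TPM in Cd+Se mice. Fga, Vtn and Fetub were the next by adjusted p, at -0.69, 0.36 and 0.55 (adjusted p = 0.00737, 0.0226 and 0.0248). Between Cd+Se and Cd the gene called was Itih1 (0.46, adjusted p = 0.0216).

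The tissue label was checked with cell type markers. All 8 hepatocyte markers were present, summing to 49285 to 69146 TPM in controls. The range was 28459 to 48910 TPM with Cd, 36567 to 55701 TPM with both agents and 49169 to 93248 TPM with SeMet. These sums rest mostly on 1 marker, whose mean over the 16 libraries was 46318 TPM. Of the 8, Cps1 and Hnf4a fell in Cd against control (log2 fold changes -1.36 and -0.81, adjusted p = 0.000169 and 0.00173) and 0 rose. This share was near the 24.9% of all genes that fell. Both rose in Cd+Se against Cd (0.87 and 0.58, adjusted p = 0.00838 and 0.0239), where 13.6% of all genes rose. Hnf4a lost the second call without Cd mouse 5 and after the length and GC correction (adjusted p = 0.0781 and 0.0724). The Kupffer cell list had 9 of 10 lower in Cd against control, beside 24.9% of all genes, led by Timd4 and Vsig4 (-1.90 and -1.96, adjusted p = 1.42e-05 and 5.25e-05). Its sum was 81.0 to 141 TPM in Cd+Se mice. Of endothelial markers 2 of 8 fell, near the 24.9% of all genes, and 0 of 8 without Cd mouse 5 or after the length and GC correction. Of stellate cell markers 1 of 6 fell, beside the same 24.9% of all genes, whereas after that correction 0 fell and 1 rose. Of the cholangiocyte and enterocyte lists only Spp1 and Fabp2 passed the filter and neither was called. The enterocyte list summed to 65.6 to 119 TPM over the 16 libraries, with Fabp2 at a mean of 90.2 TPM and Sis and Alpi at 0 in every library. Apoa4 was at 130 to 448 TPM, and the cells it came from were not tested.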

How the data were processed

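Liver RNA of 16 mice was sequenced, and groups were taken from the treatment given in the sample labels, and table columns were matched to samples by title. The authors deposited 1 table of TPM. RNA was extracted with TRIzol, and a company prepared and sequenced the libraries. The submitters' processing notes list fastp, HISAT2 and StringTie without versions and the build GRCh38, a human build, although the identifiers are mouse Ensembl; the table names no build, so no coordinates were taken from it. Sample titles list 2 replicates per mouse, while the table has 1 column per mouse; whether these were pooled was not given in the sources used here. TPM keep no depth, so depth is unknown and count tests were not used.

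From these TPM, genes under a mean level of 1 TPM were dropped and log2(TPM + 1) of the other 11766 was fitted in R 4.3.3 by limma 3.58.1, using 1 coefficient for each of the 4 groups, eBayes with trend, and Benjamini-Hochberg adjustment over all genes tested at a threshold of 0.05. A fold change on this scale understates that of low genes. Single ratios were compared by an exact two-sided permutation test over 70 arrangements (scipy). The scripts were tested on simulated data. Transcript lengths, coding sequences and positions came from GENCODE M21, and promoter windows from RefSeq (GRCm38.p6), where 8 of the 10 genes had an entry, without Apoc1 and Apoc3. Motifs were searched on both strands.

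The 10 genes and the lists were chosen with earlier results of these data known. Named were all 10 genes; of each list the counts called and up to 4 genes with the smallest adjusted p in Cd against control and in Cd+Se against Cd; Mt1 and Mt2; the 3 genes most like each of the 10; and 8 ratios. Sar1a, Mttp, Apobec1, Apoc2l and Lrp1, and the ratio of Apoa5 to Apoc3, fall outside this rule and were chosen after their values were seen. Some genes of the receptor list are not reported here. Alternatives were a pseudocount of 0.1, no filter, a mean of at least 5 TPM, quantile normalization, median centring, rescaling without mitochondrially encoded genes or without the 100 highest genes, only the groups compared, eBayes without trend, and leaving out each mouse. The loess correction (span 0.5) on length and GC content was added after seeing the data. It used the length and GC content of the longest protein-coding transcript of each gene, with transcripts of the GENCODE basic set preferred, and not the principal transcript.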

Additional observations from a re-analysis of the deposited data

Results flagged for a closer look

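The distance of the highest or lowest mouse from its nearest neighbour, divided by the range of its group, was compared with Dixon's 95% critical value in 40 groups of 4 mice; chance flags about 1 group in 20. Apoc2 in Cd+Se mouse 13, at 423 TPM, gave 0.932. Apoe in Cd mouse 5, at 17069 TPM, gave 0.879, and this library also had the highest mitochondrial share, 22.2%. Apoe in Cd+Se mouse 15, at 24165 TPM, gave 0.835. For Apoa5, the test of the difference itself found the effect of Cd to be 1.04 higher on the log2 scale with SeMet than without it (limma adjusted p = 0.0411).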

How the results depend on the processing

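Of the 10 genes, 4 were called in Cd against control, but 2 without a filter and 2 after the length and GC correction (chosen after seeing the data). Among all genes tested, 3036 of 27943 were called without a filter and 3519 of 11561 after that correction, against 3619 of 11766 as reported. In Cd+Se against Cd 5 were called, but 3 after that correction, 3 after quantile normalization, 2 without a filter and 1 when only the groups compared were fitted. Among all genes tested, the correction called 1563 of 11561, quantile normalization 2078 of 11766 and the fit without a filter 1131 of 27943. The interaction called 1, but 0 without a filter, where 26 of 27943 genes were called. Leaving out 1 mouse at a time gave 4 to 5, 2 to 5 and 0 to 1 in these comparisons. Over all genes such fits called 2588 to 3886 in Cd against control, 712 to 2164 in Cd+Se against Cd and 2 to 348 in the interaction, against 3619, 1876 and 122; fitting only the groups compared called 66 in Cd+Se against Cd. Log2 fold changes turned in sign after the length and GC correction for Apoc2 in Cd against control (-0.11), Apoa1 in Cd+Se against Cd (0.0037), and Apoa2 and Apoc1 in Cd+Se against control (-0.0412 and -0.0182). They turned after quantile normalization for Apoa1 in Cd+Se against Cd (0.0713) and Apoa2 in Cd+Se against control (-0.0421), and after median centring for Apoe in Cd against control (0.0496) and Cd+Se against Cd (-0.0317). Without 1 mouse, Apoa4 ran from -0.0597 to 0.53 and Apoc2 from -0.0337 to 0.185 in Cd against control, and Apoa1 from -0.21 to 0.14, Apoa4 from -0.29 to 0.13 and Apoh from -0.0842 to 0.0435 in Cd+Se against Cd. The cause was not tested. The summed share in control, Cd, Cd+Se and Se mice was 7.36%, 8.58%, 7.59% and 7.12% without mitochondrially encoded genes. Relative to the total of the genes outside the 100 highest, the summed TPM of all 10 genes was 16.8%, 20.4%, 17.4% and 16.3%. Most of the 10, from Apoe at rank 5 to Apoa5 at rank 96, are themselves among the 100 highest. These last values are thus ratios and not shares of a library. No paired analysis was possible because the groups share no replicate numbers. TPM keep no depth, so counting error is unknown.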
